A study of Mus musculus with 8 samples.

Results

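Intermediate filaments are the rope-like cytoskeletal polymers of the cell, and the set of subunit genes a cell uses changes as it differentiates. The 7 genes described here are the neuronal subunits Nefl, Nefm, Nefh, Ina and Prph and the progenitor subunits Nes and Vim. They were taken by gene symbol from a table of 37558 Ensembl genes, and each symbol matched 1 row. All 7 passed a minimum of 1 CPM in some library, as did 15547 genes in all. CPM are read counts scaled by library totals that were adjusted with TMM factors. In developing neurons, vimentin (Vim) and nestin (Nes) of dividing progenitors give way to alpha-internexin (Ina) and then to the neurofilament triplet, in which the light chain (Nefl) forms the core and the medium and heavy chains (Nefm, Nefh) carry long phosphorylated tails. Peripherin (Prph) is the subunit of peripheral and some central neurons. Nestin is also used by myoblasts, and vimentin by many mesenchymal cells.

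RNA was measured in 8 cultures of P19 cells, a mouse embryonal carcinoma line that can form neurons or muscle, infected with lentivirus and then kept in neuronal medium. The delivered coding sequences were the WCS mutant and the WC mutant of a chimera, the chimera itself (MyoD with the bHLH domain of NeuroD2 in place of its own), MyoD, NeuroD2 and GFP. The basic helix-loop-helix (bHLH) factors MyoD and NeuroD2 drive skeletal muscle and neurons. A second culture of WCS and of the chimera received virus at an MOI, or multiplicity of infection, of 100, whereas the labels state no MOI for the other 6 libraries and do not define WC or WCS further. Each of the 8 groups had 1 library, so a difference between libraries has no replicate check.

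Total counts ran from 26410500 for the chimera to 43984066 for GFP, and 3 counts corresponded to 0.0730 to 0.115 CPM. Myod1 had 857, 77.3, 106, 555, 116 and 296 CPM in WCS MOI 100, WCS, WC, chimera MOI 100, chimera and MyoD, with 0.804 CPM in NeuroD2 and 0.681 CPM in GFP. Neurod2 had 130, 14.6, 15.8, 73.3, 13.8, 0, 180 and 2.50 CPM in WCS MOI 100, WCS, WC, chimera MOI 100, chimera, MyoD, NeuroD2 and GFP. Of 6 markers of pluripotent P19 cells, 5 were at 1 CPM or more in every library, and their summed level was 389 to 1144.2 CPM in the libraries with a delivered factor and 2649.6 CPM in GFP. Zfp42 was near 0 in every library, with at most 0.0377 CPM (in the chimera), and had 0 counts in WC, chimera MOI 100, MyoD and NeuroD2. The summed level of 8 neuron markers was 4477.8, 1902.9, 1702.1, 2384.4, 707, 241, 2989.6 and 281 CPM in WCS MOI 100, WCS, WC, chimera MOI 100, chimera, MyoD, NeuroD2 and GFP. That of 8 skeletal muscle markers was 1625.3 CPM in chimera MOI 100, 999.9 CPM in the chimera and 10084.4 CPM in MyoD, and 17.2 to 50 CPM elsewhere. Rn7s6, a 7S RNA gene, had 0.565 to 1.28 CPM in WCS MOI 100, chimera MOI 100, the chimera and NeuroD2, against 13 to 16.3 CPM in the other 4 libraries. That split runs along WC and WCS over the chimera, along MOI 100 over no label in WCS, along MyoD over NeuroD2, and along NeuroD2, the chimera and both MOI 100 libraries over GFP. Its part in the results below was not tested.

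bHLH factors bind short DNA sites called E-boxes, written CANNTG. The form CAGCTG is known to be bound by both factors, while CAGGTG is favoured by MyoD and CAGATG by NeuroD2. These 3 words were searched on both strands in the window from 250 bases before to 50 bases after the RefSeq start (build GRCm38.p6), which the reference table gives for 4 members, Ina, Prph, Nes and Vim. The other members are Nefl, Nefm and Nefh. The Ina window held 1 match, a CAGCTG that begins 135 bases before the start. The windows of Prph, Nes and Vim held 0 matches. CAGCTG was in 16.3% of 32851 windows of the same length, CAGGTG in 20.2% and CAGATG in 17.2%, and 44.3% held at least 1 of the 3, so a match is common and is a description of letters only. The 250 bases before the start are printed for Ina, the member whose level varied most, and for Nes, whose order of libraries ran nearly opposite to that of Prph. Both sequences are on the plus strand, 5′ to 3′, with the E-box word in capitals.
Ina, chr19:47014431-47014680: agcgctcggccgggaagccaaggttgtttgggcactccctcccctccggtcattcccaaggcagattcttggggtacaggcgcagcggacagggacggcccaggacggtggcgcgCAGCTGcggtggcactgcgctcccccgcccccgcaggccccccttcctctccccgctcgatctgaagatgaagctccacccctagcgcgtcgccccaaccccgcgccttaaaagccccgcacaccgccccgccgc
Nes, chr3:87970843-87971092: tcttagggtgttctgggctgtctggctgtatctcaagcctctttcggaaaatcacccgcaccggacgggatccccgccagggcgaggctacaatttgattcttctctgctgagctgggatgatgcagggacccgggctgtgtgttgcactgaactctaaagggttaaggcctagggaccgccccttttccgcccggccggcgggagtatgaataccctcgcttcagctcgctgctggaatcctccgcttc

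Ina, the first neuronal filament subunit to appear in many developing neurons, had the widest range. It stood at 644 CPM in WCS MOI 100, 163 in WCS, 132 in WC, 89.4 in chimera MOI 100, 12.9 in the chimera, 4.84 in MyoD, 362 in NeuroD2 and 5.98 in GFP. The level was therefore high wherever NeuroD2 or a WC or WCS mutant was delivered, low in MyoD and GFP, and in between in the chimera libraries, with the higher level at MOI 100. The highest library was 133-fold above the lowest (95% counting interval 112 to 160). On the log2(CPM + 0.5) scale Ina spanned 6.92, and 0.489% of the 15547 measured genes spanned as much, against a median span of 1.06 over all of them. In the order of its levels only the lowest pair, MyoD over GFP, had a counting interval that held 1 (ratio 0.809, 0.647 to 1.01). Intervals here cover counting error in these libraries only, and in a bulk culture fewer cells of a type and less RNA per cell cannot be told apart.

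**Figure D1:**
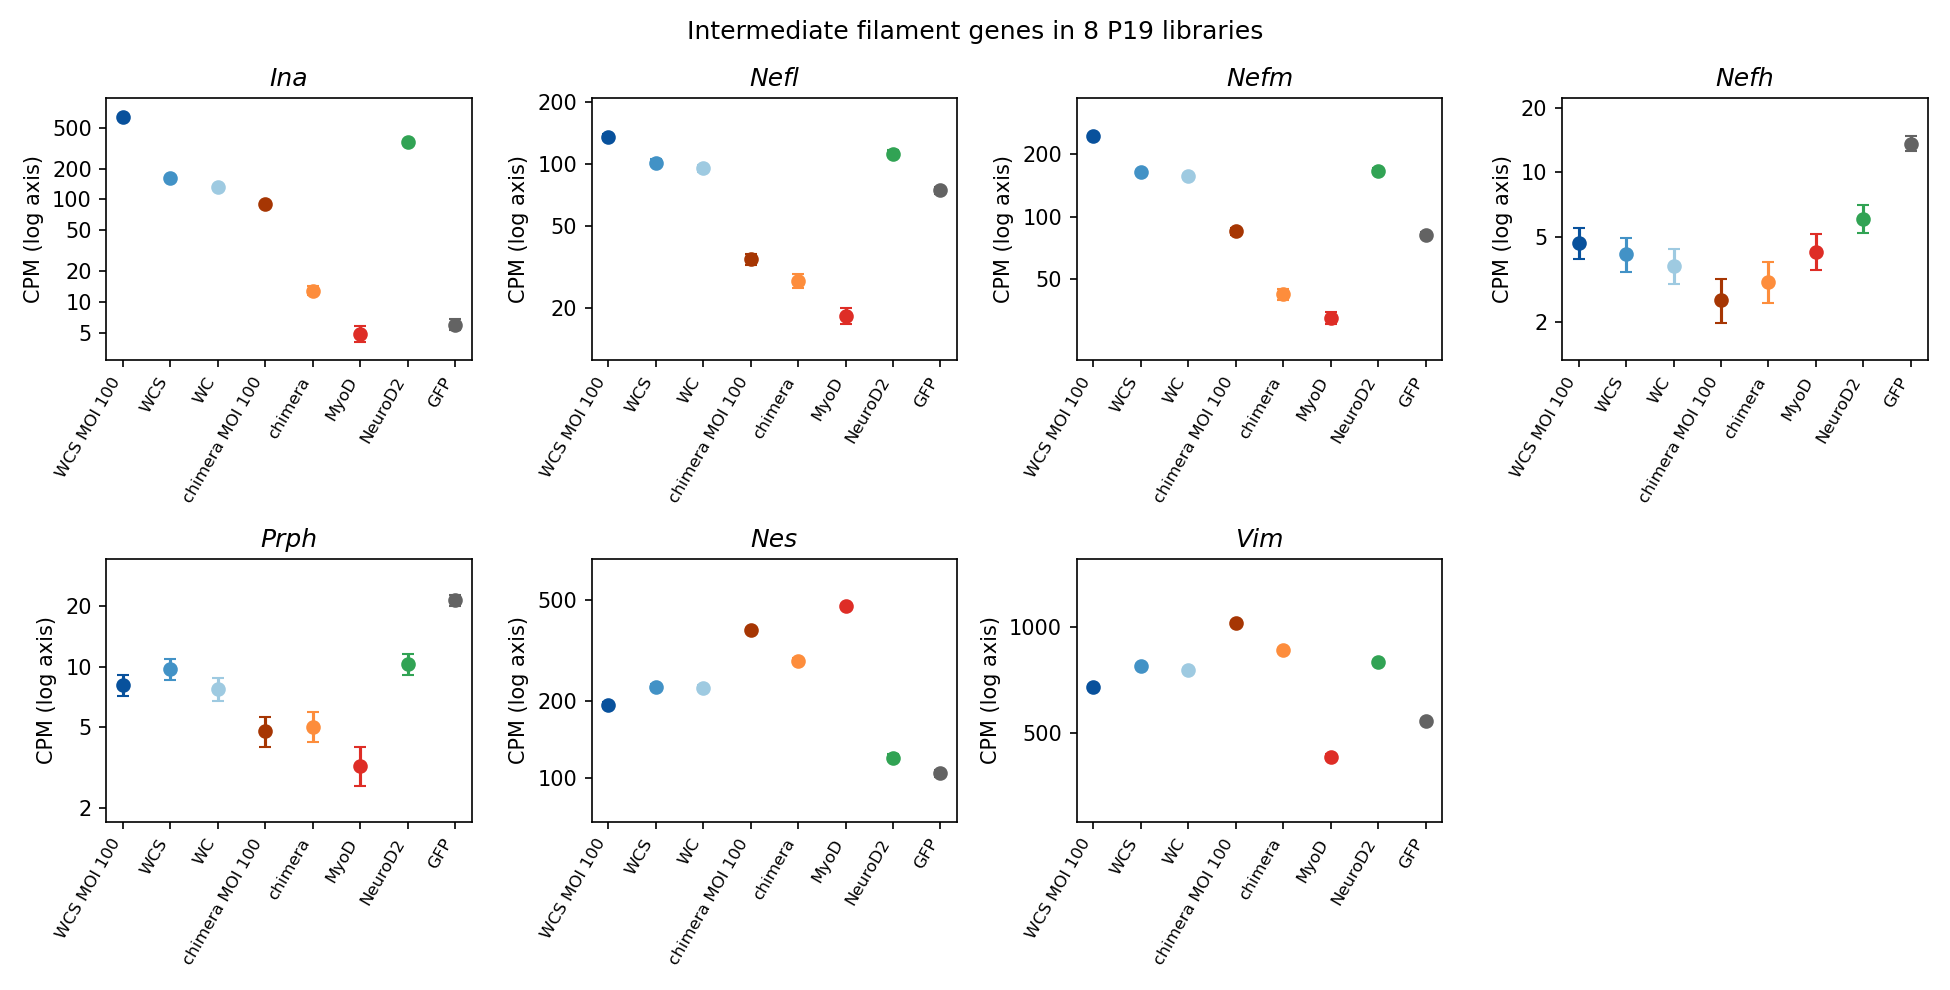
CPM of each of the 7 genes (log axis, a different range in each panel) in the 8 libraries, 1 point per library, with exact Poisson 95% counting intervals as bars. Ina reached 644 CPM in WCS MOI 100 and 4.84 CPM in MyoD, Nefh and Prph were highest in GFP (13.6 and 21.2 CPM), and Nes was highest in MyoD (474 CPM).

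Nefl, the core neurofilament subunit, was already present in GFP. Its levels were 135, 101, 95, 34.4, 27.0, 18.3, 112 and 74.3 CPM in WCS MOI 100, WCS, WC, chimera MOI 100, chimera, MyoD, NeuroD2 and GFP. GFP thus lay in the middle, below NeuroD2 and the mutants and above the chimera and MyoD. In the same library order Nefm had 244, 165, 157, 85.1, 42.4, 32.7, 166 and 82.0 CPM. Nefl and Nefm correlated at r = 0.95 over the 8 libraries, which share their scaling. The genes lie on opposite strands of chromosome 14, and in GENCODE M21 (GRCm38) a long Nefm transcript shares 1108 exon bases with Nefl. The strand setting of the counting was not stated by any source used here, and their reads could be split or shared where they overlap. Ina likewise shares 456 exon bases with Nt5c2 on the other strand. Neighbours in the order of Nefm that did not differ beyond counting error were WCS and NeuroD2, with 165 and 166 CPM, and chimera MOI 100 and GFP (1.04-fold, 0.984 to 1.09). In Nefl every neighbour differed beyond it.

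Nefh, the heavy chain that accumulates late as axons mature, was low everywhere. It had 4.67, 4.14, 3.66, 2.53, 3.09, 4.26 and 6.04 CPM in WCS MOI 100, WCS, WC, chimera MOI 100, chimera, MyoD and NeuroD2, and 13.6 CPM in GFP. GFP was the highest and NeuroD2 the next, and from WCS MOI 100 down to chimera MOI 100 no neighbouring pair in its order differed beyond counting error. Prph had 8.08, 9.71, 7.73, 4.79, 5.05, 3.23 and 10.3 CPM in the same 7 libraries and 21.2 CPM in GFP. Among the 7 libraries with a delivered factor, Prph was higher in NeuroD2 and the mutants than in the chimera libraries and MyoD, as Nefl was. Chimera MOI 100 and the chimera did not differ beyond counting error for Prph (ratio 0.949, 0.743 to 1.21).

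In order of libraries Nes ran nearly opposite to Prph. Nes had 193, 228, 226, 380, 289, 474, 120 and 104 CPM in WCS MOI 100, WCS, WC, chimera MOI 100, chimera, MyoD, NeuroD2 and GFP, so that MyoD and the chimera libraries were high and NeuroD2 and GFP low. The 3 libraries highest in Nes were the 3 with summed muscle marker levels of 999.9 CPM or more, and whether the Nes signal came from muscle-like cells was not tested. Over the 8 libraries Nes correlated at r = -0.93 with Prph, -0.79 with Nefh, -0.75 with Nefl, -0.55 with Nefm and only -0.26 with Ina. Vim was abundant in every library, with 673, 772, 753, 1025.3, 861, 428, 794 and 542 CPM in the same order. Its highest level, in chimera MOI 100, was 2.40-fold (2.35 to 2.45) its lowest, in MyoD. Of all measured genes 41.3% spanned as much as Vim on the log2(CPM + 0.5) scale. Nes and Vim had r = 0.01 over the 8 libraries. The summed level of 8 fibroblast and mesenchyme markers was 66.7, 59.4, 116, 66.6, 119, 79.4, 37.2 and 31.8 CPM in the library order used for Vim, with Lum at 0 counts in WCS MOI 100, WCS, NeuroD2 and GFP and Thy1 at 0 in chimera MOI 100. Lum was near 0 in every library, with at most 0.0768 CPM (in MyoD). The part of these markers in the levels of Vim was not tested.

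The first comparison asked what each delivered factor did to these genes relative to GFP. The size rule asked for a difference of 4-fold or more on log2(CPM + 0.5) and a level of 5 CPM or more in whichever library was higher. In NeuroD2 over GFP 1 of 7 members met it, as did 5.98% of all 15547 measured genes. That member was Ina, 60.5-fold higher (53.3 to 69.0). Nefm was 2.03-fold higher (1.94 to 2.12), Nefl 1.5-fold (1.43 to 1.58), Vim 1.46-fold (1.44 to 1.49) and Nes 1.15-fold (1.10 to 1.20). Nefh and Prph were 2.25-fold (1.90 to 2.69) and 2.06-fold (1.8 to 2.36) lower. The median log2 ratio of the 7 members was 0.55, against 0.03 over all measured genes. Among the members the ratio of Ina was therefore far from those of the other 6.

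In MyoD over GFP 2 of 7 members met the rule, against 3.67% of all measured genes. Nes was 4.54-fold higher (4.39 to 4.70) and Prph 6.56-fold lower (5.24 to 8.31). Nefl lay just outside the threshold, 4.07-fold lower as a ratio of CPM (3.69 to 4.49) but with a difference of -1.99 on the log2(CPM + 0.5) scale, and at -2.01 with DESeq2 size factors it met the rule. Nefh was 3.20-fold lower (2.60 to 3.95), Nefm 2.51-fold (2.32 to 2.71) and Vim 1.27-fold (1.24 to 1.30), while the interval for Ina held 1 (ratio 0.809, 0.647 to 1.01). Nefl, Nefm, Nefh and Prph were thus below their GFP level in MyoD beyond counting error, and how many of all measured genes were so was not counted. The median log2 ratio over the 7 members was -1.31 against -0.03 over all measured genes.

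In the chimera over GFP 0 of 7 members met the rule, against 2.89% of all measured genes. Nes was 2.77-fold higher (2.67 to 2.88), Ina 2.15-fold (1.82 to 2.55) and Vim 1.59-fold (1.56 to 1.62). Nefh was 4.41-fold (3.49 to 5.63) and Prph 4.19-fold (3.49 to 5.07) lower as ratios of CPM, each short of the threshold on the log2(CPM + 0.5) scale, and Nefl was 2.75-fold lower (2.53 to 2.99). Ina and Nes were thus both higher in the chimera than in GFP, neither by enough to meet the rule. In chimera MOI 100 over GFP 3 of 7 met the rule, against 7.91% of all measured genes. Ina was 14.9-fold higher (13.1 to 17.1), while Nefh was 5.38-fold (4.21 to 6.96) and Prph 4.42-fold (3.69 to 5.33) lower. Short of the threshold, Nes was 3.65-fold (3.52 to 3.78) and Vim 1.89-fold (1.86 to 1.92) higher, and Nefl 2.16-fold lower (2.01 to 2.32). The interval for Nefm held 1 (1.04-fold, 0.984 to 1.09). With a pseudocount of 2 CPM only 1 member met the rule in that comparison, and scaled to total gene counts Prph no longer met it (log2 ratio -1.91).

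In WCS MOI 100, WCS and WC, Ina, Nefl and Nefm all stood above GFP and Nefh and Prph below it. In each of the 3 over GFP 1 of 7 members met the rule, against 8.47%, 3.44% and 3.17% of all measured genes in that order. That member was Ina in each, 108-fold higher in WCS MOI 100 (94.9 to 123), 27.2-fold in WCS (23.9 to 31) and 22.0-fold in WC (19.3 to 25.1). Nefm was 2.97-fold (2.85 to 3.09), 2.01-fold (1.92 to 2.1) and 1.91-fold (1.83 to 2) higher in WCS MOI 100, WCS and WC. Nes was 1.85-fold (1.78 to 1.92), 2.18-fold (2.1 to 2.27) and 2.17-fold (2.09 to 2.26) higher in those libraries, above the NeuroD2 ratio. All 7 libraries were set against the same GFP library, so their ratios share its error.

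**Figure D2:**
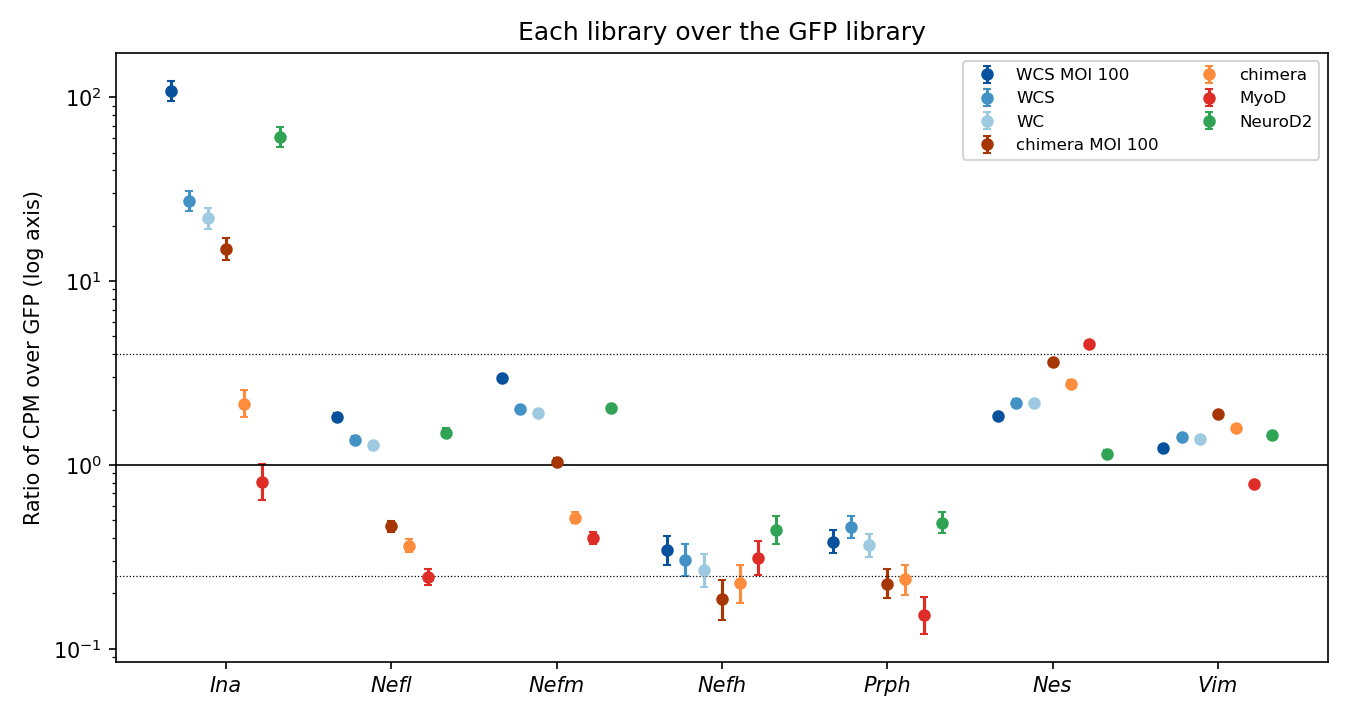
Ratio of CPM over the GFP library (log axis) for each of the 7 genes in the 7 libraries with a delivered factor, with exact conditional 95% counting intervals as bars and dotted lines at 4-fold higher and lower. Ina ran from 0.809 in MyoD to 108 in WCS MOI 100, Nes was highest in MyoD at 4.54, and the points for Nefh and Prph all lay below 1.

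Set against NeuroD2 rather than GFP, MyoD had 3 of 7 members that met the size rule, against 7.05% of all measured genes. Ina was 74.8-fold lower (62.8 to 89.9), Nefl 6.11-fold (5.54 to 6.74) and Nefm 5.08-fold (4.72 to 5.47). Nes was 3.94-fold higher (3.80 to 4.10), just under the threshold. In the chimera over NeuroD2 2 of 7 members met the rule, against 2.30% of all measured genes. Ina was 28.1-fold (25.2 to 31.4) and Nefl 4.13-fold (3.81 to 4.49) lower. Nefm, 3.92-fold lower (3.68 to 4.19), was just outside and met the rule when scaled to total gene counts. In chimera MOI 100 over NeuroD2 1 of 7 met the rule, against 1.72% of all measured genes. Ina was 4.05-fold lower (3.88 to 4.23) and did not meet the rule with a pseudocount of 2 CPM, which left 0 members. In WCS MOI 100 over NeuroD2 0 of 7 met the rule, against 0.457% of all measured genes. Ina was 1.78-fold higher there (1.74 to 1.82), Nes 1.61-fold (1.54 to 1.68) and Nefm 1.46-fold (1.41 to 1.52).

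WC and WCS were next set against the unmutated chimera. Every neuronal subunit was higher in a mutant than in the chimera and both progenitor subunits were lower. Only the interval for Nefh in WC held 1 (1.18-fold, 0.884 to 1.59). How many of all measured genes differed beyond counting error in these pairs was not counted. In WCS over the chimera 1 of 7 members met the rule, against 1.34% of all measured genes. Ina was 12.6-fold higher (11.3 to 14.1), Nefm 3.88-fold (3.64 to 4.15), Nefl 3.76-fold (3.46 to 4.08), Prph 1.92-fold (1.56 to 2.38) and Nefh 1.34-fold (1.01 to 1.8). Nes was 1.27-fold lower (1.23 to 1.31) and Vim 1.12-fold lower (1.10 to 1.14). In WC over the chimera 1 of 7 met it, against 1.04% of all measured genes, with Ina 10.2-fold (9.14 to 11.4), Nefm 3.70-fold (3.47 to 3.95) and Nefl 3.52-fold (3.24 to 3.82) higher. WCS over WC had 0 of 7, against 0.0193% of all measured genes. The widest ratios of that pair were 1.26-fold for Prph (1.05 to 1.5) and 1.24-fold for Ina (1.18 to 1.29), and the interval for Nes held 1 (1.01-fold, 0.972 to 1.04).

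At MOI 100 WCS over the chimera again had 1 of 7 members that met the rule, against 1.81% of all measured genes. Ina was 7.20-fold higher in WCS MOI 100 (6.91 to 7.50), Nefl 3.93-fold (3.67 to 4.22), Nefm 2.86-fold (2.74 to 3), Nefh 1.84-fold (1.38 to 2.47) and Prph 1.69-fold (1.37 to 2.09). Nes was 1.97-fold lower (1.91 to 2.03) and Vim 1.52-fold lower (1.5 to 1.55). The ratio for Nefl was close at both virus labels, that for Ina was larger with no label, and those for Nes and Vim were farther from 1 at MOI 100. The difference between the labels was not tested, since it would leave no residual degree of freedom. Scaled to total gene counts, Nefl also met the rule at MOI 100, which made 2 members.

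**Figure D3:**
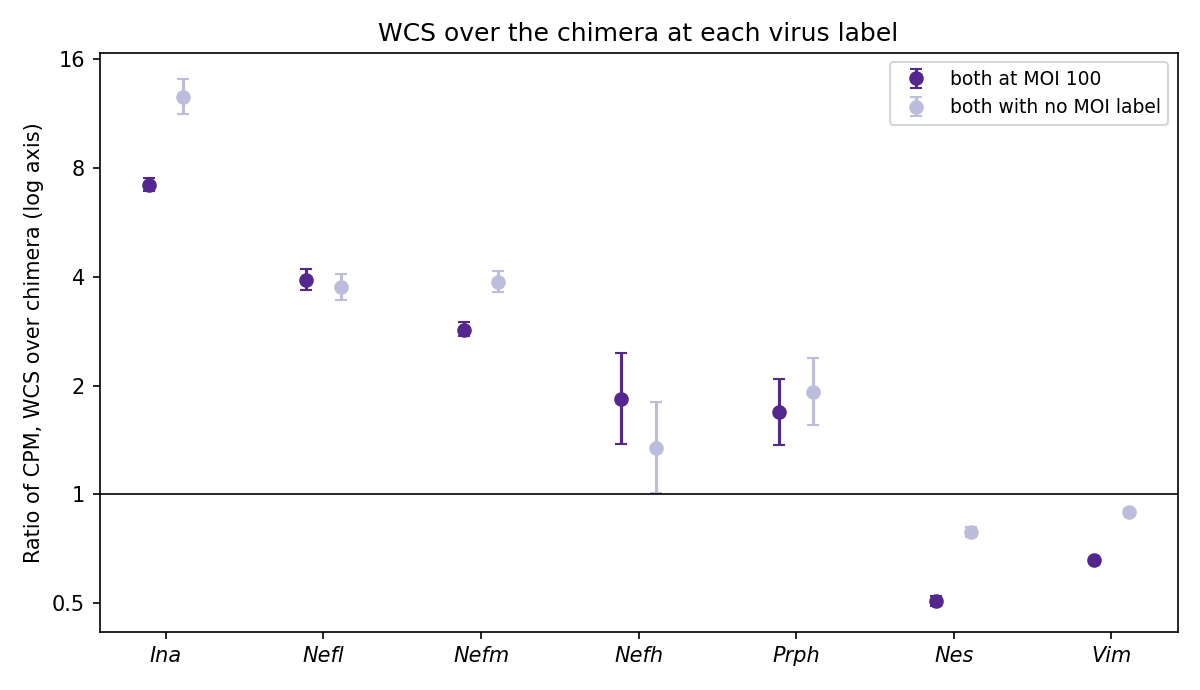
Ratio of CPM, WCS over the chimera (log axis), for each gene with both at MOI 100 and with both carrying no MOI label, with exact conditional 95% counting intervals as bars. The 5 neuronal subunits lay above 1 at both labels, with Ina at 7.20 and 12.6, while Nes (0.507 and 0.787) and Vim (0.656 and 0.896) lay below 1.

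WCS and the chimera at both MOI labels, 4 libraries in all, were fitted together in edgeR's quasi-likelihood test across 16079 genes, with construct and MOI label as terms. In WCS over the chimera 3 of 7 members rose and 1 fell, against 11.3% of all genes called in either direction. Ina rose (log2 fold change 3.23, Benjamini-Hochberg adjusted p = 0.00029), as did Nefl (1.94, adjusted p = 0.00029) and Nefm (1.74, adjusted p = 0.00053). Nes fell (-0.66, adjusted p = 0.047), a call lost without the expression filter (adjusted p = 0.054). Prph (0.85, adjusted p = 0.062), Nefh (0.65, adjusted p = 0.23) and Vim (-0.38, adjusted p = 0.21) did not pass. The fit has 1 residual degree of freedom. Its p-values set the size of the WCS difference against its likeness with and without the MOI label, with the spread estimated partly from the other genes. They hold no spread between repeated cultures, since no culture was repeated. Without the MOI term edgeR called 0 of 7 members and 0 genes in all, with 5 members and 1137 genes at an unadjusted p under 0.05, and the calls therefore rest on that term. The log2 fold changes without it were 3 for Ina, 1.95 for Nefl, 1.69 for Nefm and -0.67 for Nes. With 1 library left out as well, the value for Ina was 1.68 without WCS MOI 100, 3.67 without WCS, 4.98 without chimera MOI 100 and 2.19 without the chimera.

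For MOI 100 over no label the same edgeR fit called 25.5% of all genes, and 3 of 7 members rose. Ina rose by 2.36 on the log2 scale (adjusted p = 0.00094), Nefm by 0.78 (adjusted p = 0.0083) and Nefl by 0.38 (adjusted p = 0.049). The call for Nefl was lost in the DESeq2 Wald test (adjusted p = 0.12). Taken library by library, chimera MOI 100 over the chimera had 1 of 7 members past the size rule, against 0.926% of all measured genes. Ina was 6.94-fold higher (6.20 to 7.79), Nefm 2.01-fold (1.87 to 2.16) and Nefl 1.27-fold (1.16 to 1.41), beside Myod1 at 555 CPM in chimera MOI 100 and 116 CPM in the chimera. WCS MOI 100 over WCS had 0 of 7, against 1.18% of all measured genes, with Ina 3.96-fold higher (3.84 to 4.09), just short of the threshold, Nefm 1.48-fold (1.43 to 1.53) and Nefl 1.33-fold (1.27 to 1.40). Scaled by DESeq2 size factors or by total gene counts, Ina met the rule there.

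Levels of different genes were compared per kilobase of the longest CCDS transcript in GENCODE M21, a scale on which the 7 genes can be summed. The sum was 656, 525, 501, 596, 468, 292, 583 and 327 CPM per kb in WCS MOI 100, WCS, WC, chimera MOI 100, chimera, MyoD, NeuroD2 and GFP. The neuronal subunits made up 48.4%, 25.9%, 24.1%, 11.2%, 6.02%, 6.69%, 34.6% and 19.3% of it in those libraries. The share was thus lower in MyoD and both chimera libraries than in GFP and higher in NeuroD2, WC and both WCS libraries. The summed neuronal level itself was 66.5 CPM per kb in chimera MOI 100, 28.2 in the chimera, 19.5 in MyoD and 63.2 in GFP. In chimera MOI 100 it was therefore not below GFP, and the summed progenitor level was 530 CPM per kb there against 264 in GFP. Vim alone was 46.8% in WCS MOI 100, 83.9% in the chimera and 62.1% in NeuroD2, against 75.5% in GFP. Nes made up 26.5% in MyoD and 5.20% in GFP.

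The makeup of the neuronal subunits differed as well. Ina was 62.6% of their summed CPM per kb in WCS MOI 100, 36.9% in WCS, 33.6% in WC, 41.5% in chimera MOI 100, 14.1% in the chimera, 7.65% in MyoD, 55.4% in NeuroD2 and 2.92% in GFP. Per kilobase, Ina stood at 4.96 times Nefl in WCS MOI 100, 2.71 times in chimera MOI 100 and 3.38 times in NeuroD2, and at 0.0840 times Nefl in GFP. Nefm per Nefl varied less, with 2.50 in chimera MOI 100 as its highest and 1.12 in GFP as its lowest. The neuronal filament RNA of the GFP library was therefore mostly Nefl and Nefm, and that of NeuroD2 mostly Ina.

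**Figure D4:**
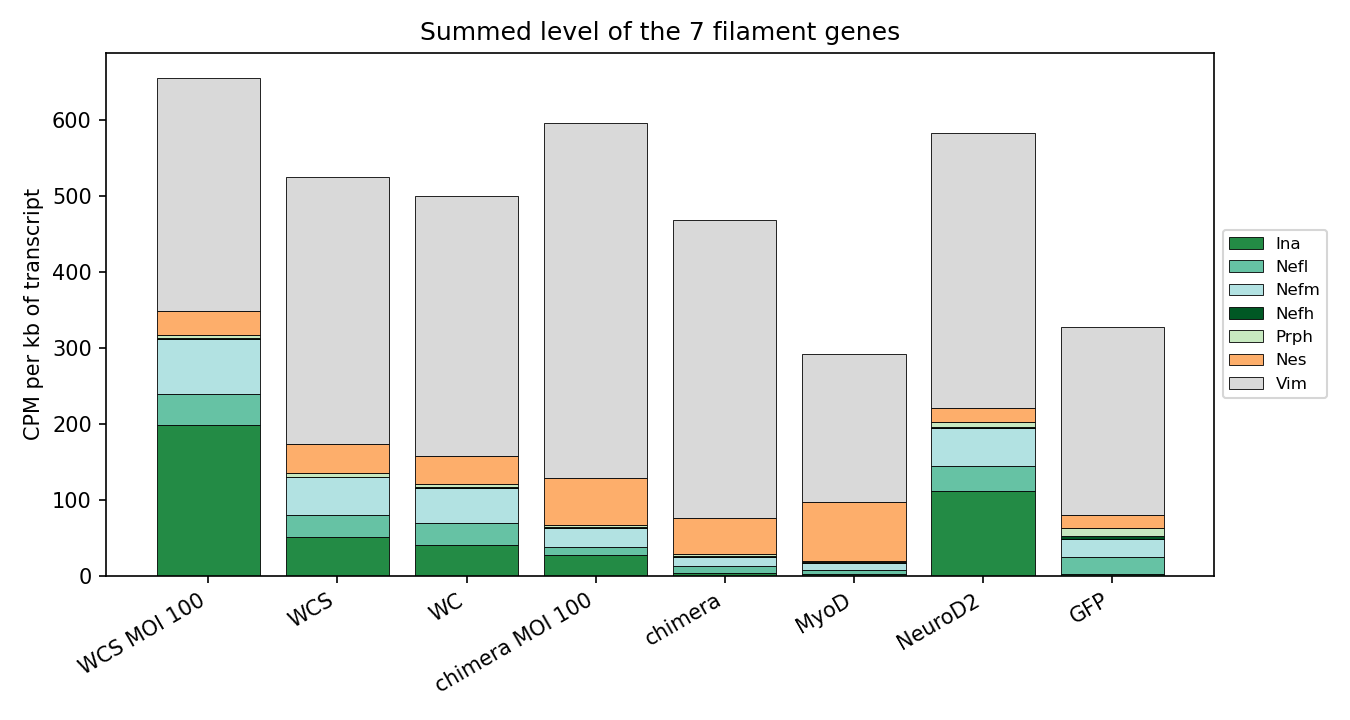
Summed level of the 7 genes in CPM per kb of transcript, as stacked bars for the 8 libraries. Vim was the largest part of every bar, the neuronal subunits made up 48.4% of the WCS MOI 100 bar and 6.02% of the chimera bar, and Nes made up 26.5% of the MyoD bar.

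Likeness was read as Pearson's r of log2(CPM + 0.5) over the 8 libraries among 11468 named genes that reached 5 CPM, as a description. A name filter meant for predicted genes also left out symbols that begin with Rn, or with C or D and a digit. The search therefore did not cover every named gene at that level. The 3 genes most like Ina were Phf24 (r = 0.998), Mapt, which encodes the axonal microtubule protein tau (0.997), and Golga7b (0.997), and 242 genes had r above 0.95 with it. Mapt had 65.0 CPM in WCS MOI 100, 40.1 in NeuroD2 and 0.997 in GFP. Those most like Nefl were Nyap1 (0.990), Tmsb10 (0.980) and Caskin1 (0.976), and those most like Nefm were Map6, a microtubule-stabilising protein (0.990), Sema4g (0.984) and Zc3h7b (0.981). For Nes they were Hip1 (0.976), Lcorl (0.970) and the immediate early gene Egr1 (0.970), and only 4 genes had r above 0.95. For Vim they were Egflam (0.975), Fam163b (0.967) and Tada1 (0.960). For Nefh they were Rab18 (0.982), Bahd1 (0.979) and Spryd3 (0.964), and for Prph R3hdm4 (0.990), Mgat4b (0.975) and Tor2a (0.971). A high r does not need a wide range, as Rab18 ran from 107 to 131 CPM and Spryd3 from 15.8 to 49.1 CPM.

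Other intermediate filament genes were read from a list of 13, of which 8 reached 1 CPM in some library. In MyoD over GFP 1 of them met the size rule upwards and 1 downwards, against 3.67% of all measured genes in either direction. Des, which encodes desmin of muscle, had 227 CPM in MyoD and 22.6 CPM in GFP, and Krt8, a keratin of simple epithelium, 1.96 CPM in MyoD and 15.7 CPM in GFP. Synm, synemin, a partner of desmin and vimentin, had 2.38 CPM in MyoD and 9.70 CPM in GFP. In NeuroD2 over GFP 0 were higher and 3 lower, namely Des, Krt8 and Krt18, against 5.98% of all measured genes, with a median log2 ratio of -1.08 against 0.03 over all measured genes. Gfap, the astrocyte filament, was below 1 CPM in every library. In the 4-library fit 0 of 9 tested members rose and 1 fell, Des (log2 fold change -3.55, edgeR adjusted p = 0.0025), the muscle filament, a share near the 11.3% of all genes called.

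Genes that link, move or phosphorylate neurofilaments were read from another list of 13, all measured. In NeuroD2 over GFP 3 met the size rule upwards and 0 downwards, against 5.98% of all measured genes. They were Kif5a and Kif5c, heavy chains of the axonal motor kinesin (144 and 398 CPM in NeuroD2, 11.6 and 74.9 CPM in GFP), and Cdk5r1, the activator of the kinase Cdk5 (45.9 CPM in NeuroD2, 10 CPM in GFP). In MyoD over GFP 2 were higher and 0 lower, against 3.67% of all measured genes. They were Cdk5r1 (149 CPM in MyoD, 10 CPM in GFP) and Plec, the linker plectin (247 CPM in MyoD, 51.1 CPM in GFP). In the 4-library fit 3 of 13 rose and 1 fell in WCS, against 11.3% of all genes called. Kif5a rose by 1.97 on the log2 scale (edgeR adjusted p = 0.00092), Cdk5r2 by 1.77 (adjusted p = 0.0011) and Trim2, a ubiquitin ligase of the light chain, by 1.02 (adjusted p = 0.0022), while Plec fell by 1.08 (adjusted p = 0.0087).

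Neural progenitor genes were mixed. Of 12 listed 10 had a row, and all 10 were measured. In the 4-library fit 5 rose in WCS and 1 fell, against 11.3% of all genes called. Notch1, a receptor of progenitors, fell by 0.75 on the log2 scale (edgeR adjusted p = 0.016). Sox3, a neural progenitor factor, rose by 1.07 (adjusted p = 0.0056), Fabp7, a radial glial lipid-binding protein, by 1.05 (adjusted p = 0.038) and Hes5, a Notch target, by 0.78 (adjusted p = 0.022). In MyoD over GFP 1 of 10 met the size rule upwards and 0 downwards, against 3.67% of all measured genes, with a median log2 ratio of -0.41 against -0.03 over all measured genes. That gene was Hes5, at 6.57 CPM in MyoD and 0.365 CPM in GFP. In NeuroD2 over GFP 3 of 10 met the size rule upwards and 0 downwards, against 5.98% of all measured genes, and the median was 0.23 against 0.03.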

How the data were processed

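Poly(A)-selected RNA of 8 cultures was sequenced by Illumina HiSeq, as the labels' protocols state. The deposited values are raw counts, 1 whole number for each Ensembl gene and library. Per the submitters' processing notes, CASAVA 1.8.2, TopHat2 2.0.8 and the mm9 build were used. Which tool, annotation and strand option produced the counts is not given in the sources used here. Counts per gene do not separate isoforms or delivered from endogenous transcripts. Symbols were matched by Ensembl identifier for 32850 of 37558 genes.

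CPM are counts after TMM scaling over 8 libraries (edgeR 4.0.16). Ratios carry exact conditional binomial (Clopper-Pearson) 95% intervals, covering counting error only. The size rule and the edgeR quasi-likelihood fit of 4 libraries (filterByExpr, Benjamini-Hochberg over all genes tested, threshold 0.05) were run on the whole table. The ratio interval and the 4-library fit were tested on simulated counts. Those for the fit held a construct effect, no MOI effect and the same spread setting for every gene. How the fit handles an MOI effect was therefore not tested. Alternatives were DESeq2 1.42.0 size factors and Wald test, total counts, a pseudocount of 2 CPM, no minimum level, a 2-fold threshold, no filter, all 8 libraries, no MOI term, and 3 of the 4 libraries. R 4.3.3, Python 3.11.15 and scipy 1.17.1 were used. All 7 members, at most the 4 genes of each list with the largest log2 ratios in a comparison, and the 3 genes most like each member were named with values. The members and lists were chosen with earlier results of these data known.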

Additional observations from a re-analysis of the deposited data

Results flagged for a closer look

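MOI 100 over no label gave opposite differences in both progenitor subunits in the WCS mutant and the chimera. Nes was 0.848 times its unlabelled level at MOI 100 in WCS (0.819 to 0.877) and 1.32 times in the chimera (1.28 to 1.35). Vim was 0.872 times its unlabelled level at MOI 100 in WCS (0.856 to 0.888) and 1.19 times in the chimera (1.17 to 1.21). The WCS differences depended on scaling. With total gene counts they were -0.11 for Nes and -0.07 for Vim on the log2 scale, against -0.24 and -0.20 with TMM. What drew attention is that the libraries of one construct moved one way and those of the other the opposite way. Each arm has 1 library per MOI label, the difference between the constructs was not tested, and the intervals cover counting error only.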

How the results depend on the processing

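No paired analysis was possible because each group has 1 library and the labels give no replicate numbers to pair by, although the MOI term of the 4-library fit does compare WCS with the chimera within each MOI label. With a 2-fold threshold the members that met the size rule numbered 5 in MyoD, the chimera and chimera MOI 100 over GFP, 4 in NeuroD2, WC, WCS and WCS MOI 100 over GFP, 5 in MyoD and chimera MOI 100 over NeuroD2, 4 in the chimera over NeuroD2, 3 in WC, WCS and WCS MOI 100 over their chimera, and 1 in WCS MOI 100 over WCS. With a pseudocount of 2 CPM they numbered 1 in chimera MOI 100 over GFP, 1 in the chimera over NeuroD2 and 0 in chimera MOI 100 over NeuroD2. Scaled to total gene counts they numbered 2 in WCS MOI 100 over chimera MOI 100 and 1 in WCS MOI 100 over WCS, as with DESeq2 size factors in the last, and 2 in chimera MOI 100 over GFP (3 with TMM) and 3 in the chimera over NeuroD2 (2 with TMM). DESeq2 size factors gave 3 in MyoD over GFP (2 with TMM). Shares of all measured genes are given here for the 4-fold rule with TMM only. The counts under other settings therefore show how the rule depends on its setting and are not a result about the members. Total counts shifted the median of all measured genes by 0.15, 0.13 and 0.21 on the log2 scale in NeuroD2, chimera MOI 100 and WCS MOI 100 over GFP, by -0.14 in MyoD over NeuroD2 and by 0.13 in WCS MOI 100 over WCS. No member changed sign under either scaling in the 17 comparisons.

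In the 4-library edgeR fit without the MOI term, 0 members and 0 genes in all were called. Leaving out each of the 4 libraries in turn, also with no MOI term since no residual degree of freedom would be left, gave 0 members each time and 0 to 103 genes in all. It gave 0 genes without WCS or WCS MOI 100, 52 without chimera MOI 100 and 103 without the chimera, against 0 in the fit of 4 libraries with no MOI term and 1821 with it. In those fits the lone library of an arm was assumed to vary like the other arm. Without the MOI term the lowest adjusted p of a member was 0.16, and over the fits without a library it was 0.091 to 0.22. All 7 members kept the sign of their fold change in these fits, but the log2 fold change of Ina ranged from 1.68 to 4.98 over the fits without a library, against 3 with 4 libraries and no MOI term. The call for Nes was lost without the expression filter (adjusted p = 0.054), and Prph passed with DESeq2 size factors (0.046) and in the fit of all 8 libraries (0.047). For MOI 100 the call for Nefl was lost in the DESeq2 Wald test (0.12), without the filter (0.075) and with all 8 libraries (0.051).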
